A study of Mus musculus with 2 samples.

Results

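Among the leukocytes of a mouse lung, the cells described here are CD8 T cells whose RNA held at least 1 molecule of a checkpoint receptor. They were chosen by counts of named genes in single cell barcodes. Barcodes under 200 genes, or with more than 10% of their molecules from mitochondrial genes, were left out. A barcode entered a CD8 gate with at least 1 count of Cd8a or Cd8b1, at least 1 of Cd3e, Cd3d, Cd3g or Trac, none of Foxp3, Xcr1, Clec9a or Cd79a, and fewer than 5 of Lyz2. Gate barcodes with at least 1 count over Pdcd1, Lag3, Havcr2, Tigit and Tnfrsf9 are called receptor-positive, and those with none receptor-negative. The lung library gave 96 receptor-positive and 95 receptor-negative barcodes, of 8194 kept and 8481 deposited barcodes. Over the whole series, 10437 of 14028 deposited barcodes were kept.

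The series held 1 library of cells selected with CD45 magnetic beads from lung and 1 from gastrocnemius muscle, both prepared with the 10x Genomics 5′ chemistry. The labels give both as TB mice of the CAC mouse model, terms they do not spell out, and name no treatment, age, strain or number of mice for either library. Receptor-positive and receptor-negative cells share all of this, since they are barcodes of the same lung library. The series' design text also names tumor-bearing mice given IgG, anti-PD-L1 or anti-CD8a for muscle RNA sequencing, which was not analysed here.

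Checkpoint receptors are surface proteins that restrain or tune T cells after they have met antigen. PD-1 (Pdcd1), LAG-3 (Lag3), TIM-3 (Havcr2) and TIGIT (Tigit) inhibit, whereas 4-1BB (Tnfrsf9) is a costimulatory receptor that activated T cells display. Naive CD8 T cells carry little of them. T cells that go on meeting antigen, for instance in a tumor or a chronic infection, can keep several at once, together with the transcription factor Tox and a changed set of cytokines and killing proteins.

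Values are counts of unique molecular identifiers (UMIs, 1 per captured RNA molecule). A level is given as CPM, a gene's counts as a fraction of all counts of a group's pooled barcodes, on the usual counts-per-million scale, with its exact Poisson 95% interval in brackets. Shares carry exact Clopper-Pearson intervals and ratios carry exact conditional binomial intervals. All of these hold counting error only. With 1 lung library and no replicate there was no test between the groups, and cells of 1 library are not replicates of a condition. A gene was called higher or lower by size alone, which took a ratio of at least 2 either way, at least 30 counts in the higher group and an interval that excluded 1.

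The 3 promoters shown here belong to genes whose RNA was at 0 or nearly 0 in receptor-negative cells: the chemokine genes Ccl1 and Xcl1 and the lectin-like receptor gene Klrh1. Each window runs from base -250 to base -11 before the RefSeq gene start on build GRCm38.p6, is read 5′ to 3′ on the gene's strand, and is 240 bases long. Capitals mark matches to a core letter pattern of NFAT (TGGAAA) or RUNX (TGTGGT), searched on both strands along with AP-1 (TGANTCA), all of them factors that act in T cells.
Ccl1, chr11:82179823-82180062, minus strand: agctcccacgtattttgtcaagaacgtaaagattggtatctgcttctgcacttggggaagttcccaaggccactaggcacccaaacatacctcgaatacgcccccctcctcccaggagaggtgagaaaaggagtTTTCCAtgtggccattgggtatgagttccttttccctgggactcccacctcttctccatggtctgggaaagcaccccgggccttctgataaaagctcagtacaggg
Xcl1, chr1:164935533-164935772, minus strand: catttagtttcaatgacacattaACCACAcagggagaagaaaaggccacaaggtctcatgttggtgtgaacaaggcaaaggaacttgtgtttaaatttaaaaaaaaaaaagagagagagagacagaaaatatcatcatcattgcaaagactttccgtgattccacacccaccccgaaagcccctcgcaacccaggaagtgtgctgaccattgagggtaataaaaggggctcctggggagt
Klrh1, chr6:129784281-129784520, minus strand: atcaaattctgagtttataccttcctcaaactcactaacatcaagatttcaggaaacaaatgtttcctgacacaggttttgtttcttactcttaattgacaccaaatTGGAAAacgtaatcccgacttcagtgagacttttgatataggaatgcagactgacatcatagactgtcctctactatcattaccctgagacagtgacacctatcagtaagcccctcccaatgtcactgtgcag
Ccl1 and Klrh1 each held 1 NFAT match, beginning at base -116 and base -143, and Xcl1 held 1 RUNX match, beginning at base -227. None of the 3 windows held the AP-1 pattern. Over 32851 RefSeq windows of the same length, 18.0% held the NFAT pattern, 13.6% the RUNX pattern and 6.58% the AP-1 pattern, and none of these patterns overlapped another in the windows shown. A match describes the letters of the window and does not show that a factor binds there.

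Receptor-positive cells were 96 of the 191 gate barcodes, a share of 50.3% (43.0 to 57.6), and the gate was 2.33% of kept lung barcodes. In muscle the same gate took 4 of 2243 kept barcodes, and 1 of those 4 was receptor-positive (25%, 0.631 to 80.6), too few to describe further. Receptor-positive barcodes were deeper, with a median of 4185 UMIs (1408 to 15656) and 1805 genes, against 3193 UMIs (708 to 8319) and 1364 genes in receptor-negative barcodes. The share grew with depth, at 39.1% in the shallowest, 47.6% in the middle and 64.1% in the deepest of 3 equal depth classes of the gate. After every barcode was thinned to 1000 UMIs, which left out 1 receptor-negative barcode, 61 of 190 barcodes (32.1%) still held a receptor count. In B cells of the same library, which should carry little of these genes, 21 of 384 barcodes (5.47%) held a count at a median of 2496 UMIs, or 2.43% after thinning. A receptor-negative barcode is one with no receptor count at its depth, which does not show that the cell lacked the receptor.

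The label of the cells was checked against T cell genes. The gate itself required a CD8 chain gene and a CD3 gene or Trac, so the CD8 shares are a description. Cd8a was seen in 91.7% of receptor-positive and 78.9% of receptor-negative barcodes, and Cd8b1 in 88.5% and 80.0% of them. Both chains were seen in 80.2% of receptor-positive and 58.9% of receptor-negative barcodes. Of genes that did not enter the gate, a T cell receptor beta constant gene was seen in 77.1% of receptor-positive and 77.9% of receptor-negative barcodes. The gamma delta gene Trdc was present in 1 receptor-positive and 3 receptor-negative barcodes, and Cd4 in 4 and 10. Of the marker genes given for these cells that did not enter the choice, Cd160 was seen in 31 and Ccl1 in 26 of the 96 receptor-positive barcodes, against 7 and 1 of the 95 receptor-negative ones. The cells and lists were chosen with earlier results of these data known, so these marker counts are a description too. The receptor-negative cells included 15 barcodes with a count of Rag1, Rag2, Dntt or Arpp21, genes of developing lymphocytes, against 1 receptor-positive barcode.

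The 5 receptors themselves are a description, since their counts chose the cells. Pdcd1 was found in 64 of the 96 barcodes (66.7%, 319 CPM), Tnfrsf9 in 55 (57.3%, 409 CPM), Lag3 in 51 (53.1%, 295 CPM), Tigit in 50 (52.1%, 245 CPM) and Havcr2 in 21 (21.9%, 63.5 CPM). In B cell barcodes the share was 0.260% for Pdcd1 and for Lag3, 0.521% for Tigit, 2.34% for Havcr2 and 2.60% for Tnfrsf9. Most cells held more than 1 receptor: 30 barcodes had 1, 17 had 2, 26 had 3, 16 had 4 and 7 had all 5. The most frequent pair was Pdcd1 with Lag3, in 41 barcodes, followed by Pdcd1 with Tnfrsf9 in 37, Lag3 with Tnfrsf9 in 36 and Pdcd1 with Tigit in 34. Pdcd1 was the only receptor in 10 barcodes, Tnfrsf9 in 8, Tigit in 6, and Lag3 and Havcr2 in 3 each. Just inside the threshold were 21 barcodes with a single receptor count, 19 had 2 or 3 and 56 had 4 or more, up to 50 in 1 barcode. Just outside it were the 95 receptor-negative barcodes, with 0.

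**Figure D1:**
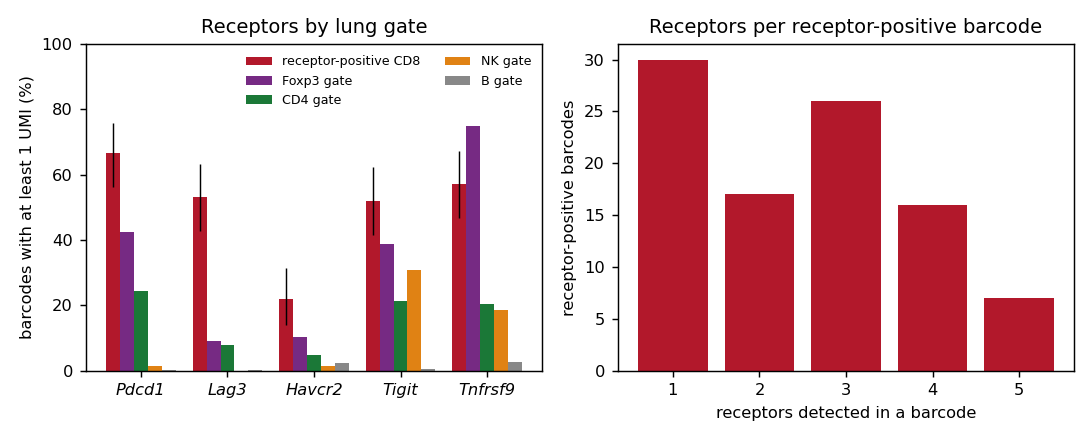
Left, the percentage of barcodes with at least 1 UMI of each receptor gene in receptor-positive CD8 cells and in 4 other lung gates, with exact 95% intervals for the CD8 cells. Right, the number of receptor-positive barcodes with 1 to 5 receptors detected, of which 30 held 1 and 7 held all 5.

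Other T cells of the same lung shared part of this receptor set. A receptor count was found in 126 of 144 Foxp3-positive barcodes (87.5%), in 57 of 127 CD4 barcodes without Foxp3 (44.9%) and in 28 of 65 NK barcodes (43.1%). After thinning these shares were 64.7%, 29.0% and 17.2%. Tnfrsf9 was seen in 75% of Foxp3-positive barcodes, at 1059 CPM. Lag3, at 295 CPM in the receptor-positive CD8 cells, stood at 38.0 CPM in Foxp3-positive cells and 35.3 CPM in CD4 cells, and had no count in NK cells. These gates were not selected for a receptor, so their levels also include cells without one.

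Across the genes outside the rule, receptor-positive cells had more RNA of several chemokines, granzymes, costimulatory receptors and activation regulators, and less RNA of genes that mark naive and recirculating T cells. Of 4363 genes with at least 30 counts over both groups, 381 (8.73%) were called higher and 162 (3.71%) lower in receptor-positive cells. The median log2 ratio over all of them was 0.09. When ribosomal, mitochondrial and Rn18s counts were left out of the totals, 300 genes were called higher and 201 lower, and the median log2 ratio shifted by -0.13. With the split made again on counts thinned to 1000 UMIs, 944 genes were tested, and 33 were called higher and 36 lower. Of the 381 higher genes, 27 were then called higher again and 37 had a log2 ratio below 0. Each list below is set beside these background values. The genes first named here are the 15 with the highest and the 10 with the lowest ratio among called genes seen in at least 5% of barcodes of the higher group.

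**Figure D2:**
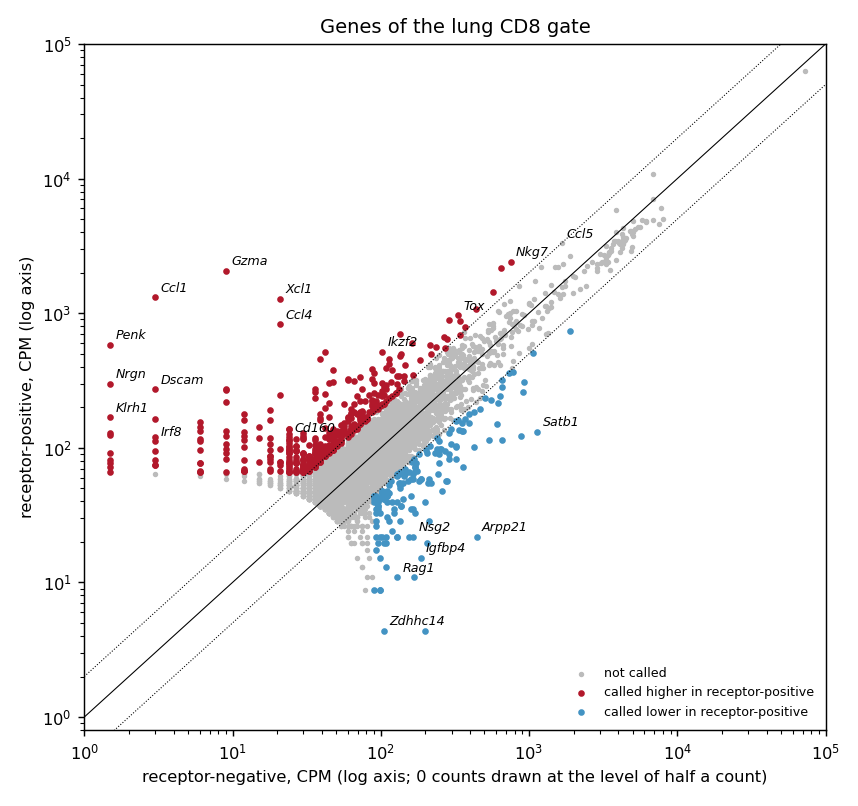
Each point is a gene, with its CPM in receptor-positive cells on the vertical axis and in receptor-negative cells on the horizontal axis, both on log scales. Red points are the 381 genes called higher and blue points the 162 called lower in receptor-positive cells, the solid line marks equal levels and the dotted lines a ratio of 2 either way.

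Among called genes counted in both groups, the highest ratio was that of the chemokine gene Ccl1, and Xcl1 and Ccl4 were also among the 15. Ccl1, whose product attracts cells with the receptor CCR8, stood at 1309 CPM (1206 to 1418) in receptor-positive cells and 3.0 CPM (0.0758 to 16.7) in receptor-negative cells, a log2 ratio of 8.77 (6.29 to 14.08). It was found in 26 receptor-positive barcodes and 1 receptor-negative barcode, and 3 barcodes held 74.2% of its 598 counts. Xcl1, which draws cross-presenting dendritic cells, stood at 1280 CPM in receptor-positive and 21.0 CPM in receptor-negative cells (log2 ratio 5.93, 4.88 to 7.25), in 24 and 6 barcodes. Ccl4, an inflammatory chemokine, stood at 827 CPM in receptor-positive and 21.0 CPM in receptor-negative cells (5.30, 4.24 to 6.63), in 36 and 7 barcodes. Few cells made most of this chemokine RNA, and the top 3 barcodes held 56.6% of the Xcl1 and 66.1% of the Ccl4 counts. None of the 384 B cell barcodes held Ccl1 or Xcl1, read against a floor of 3 counts (0.781% of barcodes), while 10.2% held Ccl4. Both chemokines were also counted in other lymphocytes. Ccl1 stood at 217 CPM in CD4, 1.81 CPM in Foxp3-positive and 11.9 CPM in NK cells. Xcl1 stood at 122 CPM in CD4 and 306 CPM in NK cells, where 33.8% of barcodes held it, against 25% of receptor-positive ones, and at 0 in Foxp3-positive cells.

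Of the 18 genes in the list of cytokines and chemokines, 10 were tested, of which 5 were called higher and 1 lower, with a median log2 ratio of 1.02. That median was 1.69 without likely doublets, 1.81 without the barcode of each group with the most counts of each gene, and 3.02 in the stricter gate described with the other lung cells. Besides the 3 above, Csf1, a growth factor of macrophages, stood at 85.3 CPM in receptor-positive and 27.0 CPM in receptor-negative cells, and Tgfb1, an immunosuppressive cytokine, at 221 and 108 CPM. Ccl5 was the most abundant of the list in both groups, at 3309 CPM in receptor-positive and 1656 CPM in receptor-negative cells, and its log2 ratio of 0.998 (0.857 to 1.14) was not called. Ccl3, an inflammatory chemokine, stood at 201 CPM in receptor-positive and 320 CPM in receptor-negative cells (log2 ratio -0.67, not called), and 1 barcode held 91 of its 107 receptor-negative counts. Ifng, the interferon gamma gene, had 19 counts in receptor-positive and 7 in receptor-negative cells, and Il2 had 0 and 1. Tnf was called lower, at 43.8 CPM in receptor-positive and 159 CPM in receptor-negative cells, but 47 of its 53 receptor-negative counts came from 1 barcode. Without the barcode of each group with the most Tnf counts its log2 ratio was 0.96. It was seen in 13 receptor-positive and 7 receptor-negative barcodes.

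Cytotoxic effectors were higher in receptor-positive cells in 9 of the 14 tested genes, with none lower, and their median log2 ratio was 2.05. Summed over the list, they stood at 8027 CPM in receptor-positive and 2588 CPM in receptor-negative cells. Nkg7, a protein of cytotoxic granules, was the broadest of them, in 88 receptor-positive and 66 receptor-negative barcodes, at 2407 CPM (2267 to 2554) and 752 CPM (662 to 851). Perforin (Prf1) stood at 103 CPM in receptor-positive and 24.0 CPM in receptor-negative cells, granzyme B (Gzmb) at 112 and 5.99 CPM, and Cst7, an inhibitor of granule proteases, at 385 and 86.9 CPM.

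Within the CD8 gate, granzyme RNA was found in few barcodes. Gzma, the granzyme A gene, stood at 2068 CPM in receptor-positive and 8.99 CPM in receptor-negative cells (log2 ratio 7.85, 6.30 to 10.13), yet only 13 of the 96 receptor-positive barcodes held it. Those 13 had a median of 53 Gzma counts, and none of them held Xcl1. NK cells held more Gzma, at 4588 CPM and in 73.8% of barcodes, while CD4 cells stood at 2.35 CPM and Foxp3-positive cells at 0. The Gzma ratio varied with which receptors counted. It was 3.18 on the log2 scale when Tigit was left out of the receptor sum and 1.24 when the split was made again on thinned counts. Gzmc came from 4 receptor-positive barcodes (125 CPM) and no receptor-negative one, which makes it at least 13.9-fold higher against a floor of 3 counts for the group. Ctsw and Lamp1 were tested without a call, at 462 and 87.5 CPM in receptor-positive and 335 and 98.8 CPM in receptor-negative cells.

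Several of the genes with the highest ratios are best known from other tissues. Of the 15 highest genes, 7 had no count in receptor-negative cells. Penk, which encodes the opioid precursor proenkephalin, had 267 counts in 25 receptor-positive barcodes (584 CPM, 516 to 659), at least 65.0-fold above the floor. Its level was 520 CPM in CD4 cells, 515 CPM in Foxp3-positive cells and 0 in NK cells. When Tnfrsf9 was left out of the receptor sum, its log2 ratio was 1.29. Nrgn, a calmodulin-binding protein studied in neurons, had 137 counts in 30 receptor-positive barcodes (300 CPM, at least 33.4-fold). It stood at 37.7 CPM in CD4 cells, 3.62 CPM in Foxp3-positive cells and 87.5 CPM in NK cells.

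Klrh1 had 77 counts in 16 receptor-positive barcodes (169 CPM, at least 18.7-fold) and no count in receptor-negative, CD4, Foxp3-positive, NK or B cell barcodes. Chn2, a Rac-regulating chimaerin, was found in 27 receptor-positive barcodes (129 CPM, at least 14.4-fold), and Cib2, a calcium-binding protein, in 21 (81.0 CPM, at least 9.01-fold). Sulf2, which edits heparan sulfate, was found in 20 (76.6 CPM, at least 8.52-fold), and Vipr2, a receptor of the neuropeptide VIP, in 18 (65.7 CPM, at least 7.31-fold). Dscam and Gpm6b, membrane proteins studied in the nervous system, had 1 receptor-negative count each. Dscam was found in 35 receptor-positive barcodes at 271 CPM (log2 ratio 6.5, 4.0 to 11.82) and Gpm6b in 34 at 164 CPM (5.78, 3.25 to 11.10), and 19 barcodes held both. Other lymphocytes also held some of these genes. Chn2 stood at 111 CPM and Sulf2 at 83.6 CPM in NK cells, and Gpm6b at 188 CPM in CD4 cells. Cib2, Vipr2 and Dscam were lower in CD4, Foxp3-positive and NK cells than in receptor-positive cells. Their highest levels there were 14.5 CPM (Foxp3-positive), 40.0 CPM (CD4) and 47.0 CPM (Foxp3-positive). For Vipr2 the intervals overlapped, at 44.3 to 93.7 CPM in receptor-positive and 23.3 to 64.1 CPM in CD4 cells.

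Igfbp7, an insulin-like growth factor binding protein, stood at 120 CPM in receptor-positive and 3.0 CPM in receptor-negative cells (log2 ratio 5.33), in 26 and 1 barcodes. In NK cells Igfbp7 was higher, at 1218 CPM, though in only 4.62% of barcodes. It stood at 18.8 CPM in CD4 and 28.9 CPM in Foxp3-positive cells. Irf8, a transcription factor of myeloid and B cells that activated CD8 T cells can also use, stood at 112 CPM in receptor-positive and 3.0 CPM in receptor-negative cells (5.22). It was seen in 30 receptor-positive barcodes and 1 receptor-negative barcode, and in 49.5% of B cell barcodes. NK cells stood at 525 CPM of Irf8, with 53.8% of barcodes holding it, Foxp3-positive cells at 101 CPM and CD4 cells at 25.9 CPM. The summed B cell markers were lower in the receptor-positive cells, at 50.3 CPM against 183 CPM in receptor-negative cells, while B cells stood at 11853 CPM. These markers include Cd79a, which the CD8 gate barred, and Cd79a and Ms4a1 chose the B cells, so the gates partly set the gap to B cells. The source of the Irf8 counts was not tested.

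Inhibitory receptors outside the rule followed, with 5 of 9 tested genes called higher, none lower, and a median log2 ratio of 1.84. Ctla4, which competes for the ligands of CD28, stood at 252 CPM (208 to 302) in receptor-positive and 41.9 CPM (22.9 to 70.4) in receptor-negative cells, in 44 and 6 barcodes. Cd160, a receptor of cytotoxic lymphocytes, stood at 120 CPM in receptor-positive and 24.0 CPM in receptor-negative cells, and at 14.1 CPM in CD4, 0 in Foxp3-positive and 19.9 CPM in NK cells. Cd101, Cd200r1 and Entpd1, the ectoenzyme CD39, were the other 3, with 67.8, 87.5 and 96.3 CPM in receptor-positive and 12.0, 18.0 and 27.0 CPM in receptor-negative cells. Btla and Vsir were not called, at 52.5 and 59.1 CPM in receptor-positive and 53.9 and 83.9 CPM in receptor-negative cells.

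Costimulatory receptors were called higher in 5 of 10 tested genes, with none lower and a median log2 ratio of 1.03. The TNF-receptor family members Tnfrsf4 (OX40) and Tnfrsf18 (GITR) had the highest ratios of the list. Tnfrsf4 stood at 179 CPM in receptor-positive and 12.0 CPM in receptor-negative cells (log2 ratio 3.90, 2.49 to 5.81), and Tnfrsf18 at 306 and 47.9 CPM (2.68, 1.93 to 3.52). In Foxp3-positive cells these 2 genes stood at 1012 and 721 CPM. Icos, Cd226 and Crtam were also called higher, whereas Cd28, at 179 CPM in receptor-positive and 138 CPM in receptor-negative cells, and Cd27, at 136 and 95.8 CPM, were not called.

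Regulators of activation and exhaustion had 13 of 20 tested genes called higher and none lower, with a median log2 ratio of 1.46. Tox, a factor that exhausted T cells depend on, stood at 969 CPM (881 to 1064) in receptor-positive and 329 CPM (271 to 397) in receptor-negative cells, in 76 and 41 barcodes. Ikzf2 (Helios), known from regulatory T cells, stood at 519 CPM in receptor-positive and 102 CPM in receptor-negative cells, below the 2102 CPM of Foxp3-positive cells. The orphan receptor Nr4a2, induced by T cell receptor signals, stood at 302 CPM in receptor-positive and 44.9 CPM in receptor-negative cells, while its relatives Nr4a1, at 67.8 and 62.9 CPM, and Nr4a3, at 94.1 and 53.9 CPM, were not called. Id2, which favours effector fate, stood at 597 CPM in receptor-positive and 162 CPM in receptor-negative cells, Bhlhe40 at 322 and 59.9 CPM, and Tbx21 (T-bet) at 116 and 27.0 CPM. Rgs16, a brake on chemokine receptor signals, stood at 142 CPM in receptor-positive and 5.99 CPM in receptor-negative cells.

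Genes of naive and central memory T cells were lower as a group: 16 of 19 tested genes were called lower and none higher, with a median log2 ratio of -2.30. Their summed level was 2232 CPM in receptor-positive and 7707 CPM in receptor-negative cells. Satb1, a chromatin organizer of T cell development, stood at 131 CPM (100 to 169) in receptor-positive and 1138 CPM (1027 to 1259) in receptor-negative cells, in 22 and 73 barcodes. The partners Lef1 and Tcf7, which keep T cells in the naive or stem-like state, stood at 123 and 114 CPM in receptor-positive and 884 and 659 CPM in receptor-negative cells. Klf2, which drives the tissue exit receptor S1pr1, stood at 101 CPM in receptor-positive and 422 CPM in receptor-negative cells. S1pr1 itself stood at 21.9 CPM in receptor-positive and 129 CPM in receptor-negative cells.

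Among the 10 lowest genes of the whole table, Igfbp4, Ccr9, Satb1 and Nsg2 belonged to this list, at log2 ratios of -3.60, -3.50, -3.12 and -2.91. Bcl2, Ccr7 and Il7r were the 3 genes of the list that were not called. Il7r, the receptor of the survival cytokine IL-7, stood at 219 CPM in receptor-positive and 437 CPM in receptor-negative cells, a log2 ratio of -0.999 (-1.38 to -0.622). Within the 3 depth classes of the gate, the log2 ratio of the summed list was -1.81 in the shallowest, -1.86 in the middle and -1.67 in the deepest.

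Another set of low genes was seen in a few receptor-negative barcodes. Arpp21, Rag1, the recombinase gene, and Dntt, which adds bases at antigen receptor joints, are expressed in developing lymphocytes. Arpp21 stood at 21.9 CPM in receptor-positive and 443 CPM in receptor-negative cells (log2 ratio -4.34), in 1 and 13 barcodes. Rag1 stood at 10.9 CPM in receptor-positive and 129 CPM in receptor-negative cells (-3.56), in 1 and 11 barcodes, and Dntt at 8.75 and 98.8 CPM (-3.50), in 1 and 12. A list of 9 immature thymocyte genes, chosen after the values were seen, had 4 of 5 tested genes called lower. When the barcodes with Rag1, Rag2, Dntt or Arpp21 were left out, 96 genes were called lower, and the naive list kept a median log2 ratio of -2.34. Zdhhc14, a palmitoyltransferase, stood at 4.38 CPM in receptor-positive and 105 CPM in receptor-negative cells (-4.58), and was at 0.34 when the split was made again on thinned counts. Nedd4l, a ubiquitin ligase, stood at 19.7 CPM in receptor-positive and 204 CPM in receptor-negative cells (-3.37), in 9 and 36 barcodes. Klra13-ps, a pseudogene that may share reads with other Klra genes, completed the 10 (-3.36).

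**Figure D3:**
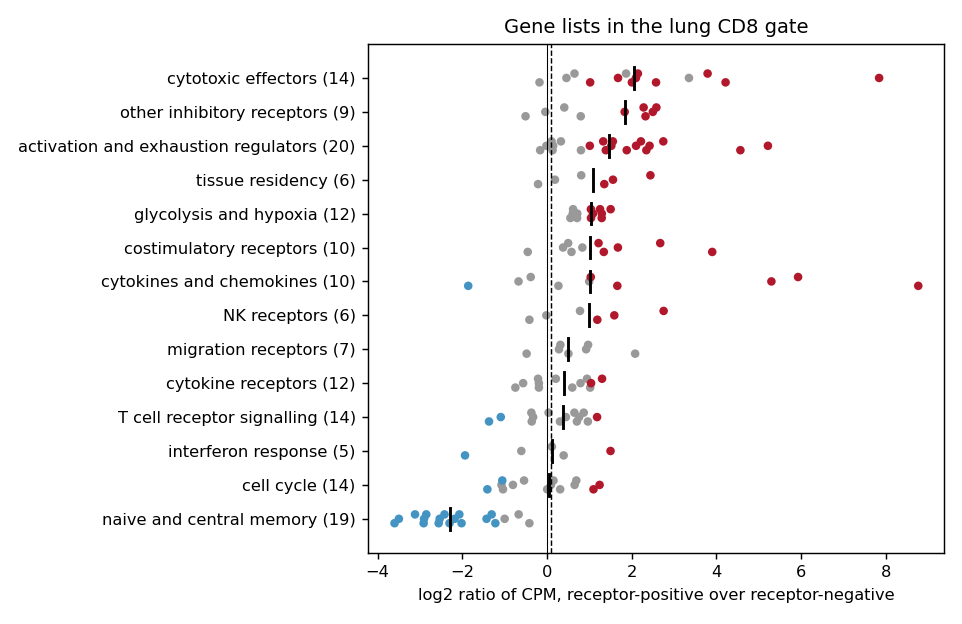
Each point is a tested gene of a list, placed by the log2 ratio of its CPM in receptor-positive over receptor-negative cells, with genes at 0 counts in receptor-negative cells placed at their bound. Red and blue mark genes called higher and lower, black bars mark list medians, the dashed line marks the median of all tested genes (0.09), and brackets give the number of tested genes, of which 16 of 19 were called lower in the naive list.

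Glycolytic genes, which activated T cells raise to grow, were called higher in 7 of 12 tested genes with none lower, at a median log2 ratio of 1.04. Gapdh stood at 1072 CPM in receptor-positive and 437 CPM in receptor-negative cells, Aldoa at 449 and 183 CPM, Tpi1 at 221 and 77.9 CPM, and Hif1a, the hypoxia-responsive regulator, at 243 and 102 CPM. Ldha and Eno1 were not called, at 414 and 324 CPM in receptor-positive and 282 and 198 CPM in receptor-negative cells.

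Genes of tissue residency were called higher in 3 of 6 tested genes. Cxcr6, a chemokine receptor of resident T cells, stood at 326 CPM (276 to 383) in receptor-positive and 59.9 CPM (36.6 to 92.5) in receptor-negative cells, in 52 and 10 barcodes, against 94.2 CPM in CD4, 47.0 CPM in Foxp3-positive and 19.9 CPM in NK cells. Litaf and Ahr, a sensor of environmental ligands, were the other 2. The residency markers Cd69, at 127 CPM in receptor-positive and 147 CPM in receptor-negative cells, and Itgae (CD103), at 140 and 123 CPM, were not called. None of 7 tested migration receptors was called, and 2 of 12 tested cytokine receptors, Il18rap and Il21r, were called higher. Il2ra, the high-affinity IL-2 receptor chain, had 28 counts in receptor-positive and 1 in receptor-negative cells and stayed under the limit of 30.

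NK receptor genes were called higher in 3 of 6 tested genes: Klre1, Klrc1 and Klrd1. Klrd1 (CD94) stood at 499 CPM in receptor-positive and 219 CPM in receptor-negative cells. The defining NK genes Ncr1 and Klrb1c had 0 and 1 counts in receptor-positive and 0 and 2 in receptor-negative cells. Trgc2, a gamma chain constant gene close in sequence to Trgc1, stood at 116 CPM in receptor-positive and 5.99 CPM in receptor-negative cells, in 21 and 2 barcodes, and its reads may be shared with Trgc1. It had no count in CD4, Foxp3-positive or NK barcodes, and Trdc had 1 count in the receptor-positive cells.

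T cell receptor signalling genes were mostly not called, with 1 of 14 tested genes higher and 2 lower. Ptpn11, the phosphatase SHP-2, stood at 123 CPM in receptor-positive and 53.9 CPM in receptor-negative cells. The receptor's zeta chain Cd247 stood at 236 CPM in receptor-positive and 503 CPM in receptor-negative cells, and the kinase Prkcq at 153 and 395 CPM. Of 5 tested interferon response genes, Ifi27l2a was called higher and Ly6a lower, and 3 were not called. Of 14 tested cell cycle genes 2 were called higher, Dut and Mcm6, and 2 lower, Mki67 and Ube2c. The median log2 ratio of the cell cycle list was 0.05, and 1.53 when the barcodes with Rag1, Rag2, Dntt or Arpp21 were left out. Mki67, a marker of dividing cells, had 29 counts over 15 receptor-positive and 44 counts over 8 receptor-negative barcodes. A dividing gene was seen in 29 of 96 receptor-positive (30.2%) and 11 of 95 receptor-negative barcodes (11.6%). After thinning these shares were 11.5% and 9.57%.

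RNA of other lung cells was present in both groups. The summed neutrophil markers stood at 1101 CPM in receptor-positive, 1875 CPM in receptor-negative and 1734 CPM in B cells, with all 5 of the markers counted in both CD8 groups. The monocyte and macrophage markers stood at 398 CPM in receptor-positive, 545 CPM in receptor-negative and 601 CPM in B cells. The red cell markers had no count in either CD8 group, and those of epithelium and endothelium stood at 28.4 and 41.6 CPM in receptor-positive and 77.9 and 129 CPM in receptor-negative cells. The part of this RNA in the gene differences was not tested. With a stricter gate, without Lyz2 and with fewer than 3 counts of S100a8 and S100a9, 34 receptor-positive barcodes were left, and the median log2 ratio was -2.03 for the naive and 1.32 for the cytotoxic list. In that gate it was 3.02 for cytokines and chemokines, 2.10 for regulators of activation and exhaustion, 2.06 for the cell cycle and 1.5 for the interferon response. Only 1401 genes were tested there, and 70 of the 381 genes called higher were called again.

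The receptor-positive cells differed among themselves along the number of receptor counts. At 0, 1, 2 to 3, and 4 or more receptor counts, the summed naive list stood at 7707, 4099, 2635 and 1544 CPM. The cytotoxic list stood at 2588, 4953, 6561 and 9382 CPM over the same steps, and the glycolytic list at 1965, 2415, 3588 and 4580 CPM. The lists of costimulatory receptors and of activation and exhaustion regulators also rose at each step, while the remaining lists did not. NK receptors stood at 812, 1494, 1267 and 1135 CPM, and tissue residency at 521, 1101, 1255 and 1030 CPM. Cytokines and chemokines stood at 2774, 5739, 8631 and 8313 CPM. The median depth of these steps was 3193, 4249, 4019 and 4185 UMIs, so the 3 receptor-positive steps had similar medians. The pooled levels give deeper barcodes more weight, which the medians do not show. Lef1 stood at 884, 371, 138 and 41.6 CPM and Satb1 at 1138, 303, 151 and 72.9 CPM, while Tcf7, at 659, 157, 226 and 69.4 CPM, did not fall at each step.

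Several genes that were nearly absent from receptor-negative cells were highest at 4 or more receptor counts. Ccl1 stood at 3.0, 33.7, 414 and 1950 CPM, Xcl1 at 21.0, 146, 966 and 1717 CPM, and Penk at 0, 33.7, 226 and 854 CPM. Nrgn stood at 0, 44.9, 25.1 and 455 CPM, and Dscam at 3.0, 44.9, 87.8 and 392 CPM. The 21 barcodes with a single receptor count lay between the receptor-negative cells and the cells with more counts in the naive and cytotoxic lists. Gzma stood at 8.99, 1000, 1819 and 2467 CPM, Ccl4 at 21.0, 270, 1204 and 895 CPM, and Trgc2 at 5.99, 44.9, 151 and 128 CPM. Like Ccl1, Xcl1, Penk and Dscam, these genes stood above the receptor-negative level at 2 to 3 receptor counts. Several values rest on few barcodes. Gzma was seen in 3, 3, 2 and 8 barcodes over the steps and Ccl4 in 7, 8, 4 and 24. At 1 receptor count, Ccl1 and Xcl1 came from 1 barcode each. At 2 to 3 receptor counts, Ccl1 and Trgc2 came from 3 barcodes each, Penk and Dscam from 4 each, and Nrgn from 1. Ccl5 went another way, at 1656, 4346, 4843 and 2564 CPM. It was seen in 37.9%, 66.7%, 68.4% and 67.9% of barcodes.

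**Figure D4:**
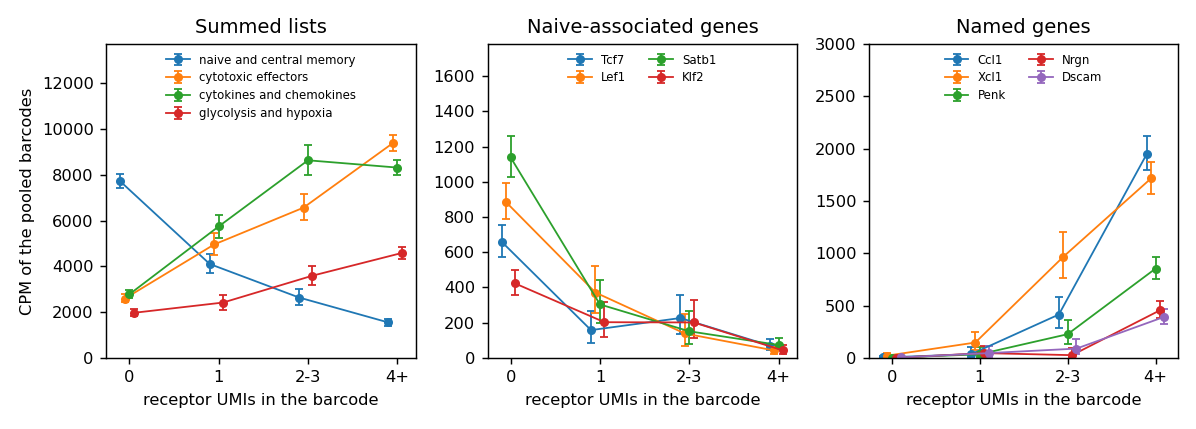
CPM of pooled lung CD8 gate barcodes with 0, 1, 2 to 3, and 4 or more receptor UMIs, with exact Poisson 95% intervals, for 4 summed lists, 4 genes of naive T cells and 5 genes of the highest ratios. The naive list is lower at each step, with 7707 CPM at 0 and 1544 CPM at 4 or more receptor counts, and Ccl1 stands at 1950 CPM at the last.

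The leading genes did not mark a single set of cells. Ccl1 was seen together with Nrgn in 18 barcodes, with Penk in 13 and with Xcl1 in 13, of 26 barcodes with Ccl1. Gzma, in 13 barcodes, was seen with Trgc2 in 9 and with Klrh1 in 5 of them, but with Ccl1 in 3, Penk in 1 and Xcl1 in 0. These are counts of detection at the depth of each barcode, so an absent pair may also be a gene that was not caught.

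T cell receptor beta variable genes did not enter the rule. A Trbv count was found in 61 of 96 receptor-positive barcodes and in 51 of 95 receptor-negative ones. Each such barcode was given the Trbv gene with its most counts. Trbv31 led in 14 receptor-positive barcodes (23.0%, 13.2 to 35.5), Trbv3 in 12 (19.7%, 10.6 to 31.8) and Trbv1 in 10 (16.4%, 8.15 to 28.1). Together these 3 led in 36 of 61 receptor-positive barcodes (59.0%, 45.7 to 71.4), against 6 of 51 receptor-negative barcodes (11.8%, 4.44 to 23.9). In CD4 and in Foxp3-positive barcodes they led in 14 of 63 each (22.2%, 12.7 to 34.5). The 3 genes were picked after their values were seen, so the gap between the groups is a description. The most frequent gene in receptor-negative barcodes, Trbv13-1, led in 7 of 51.

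**Figure D5:**
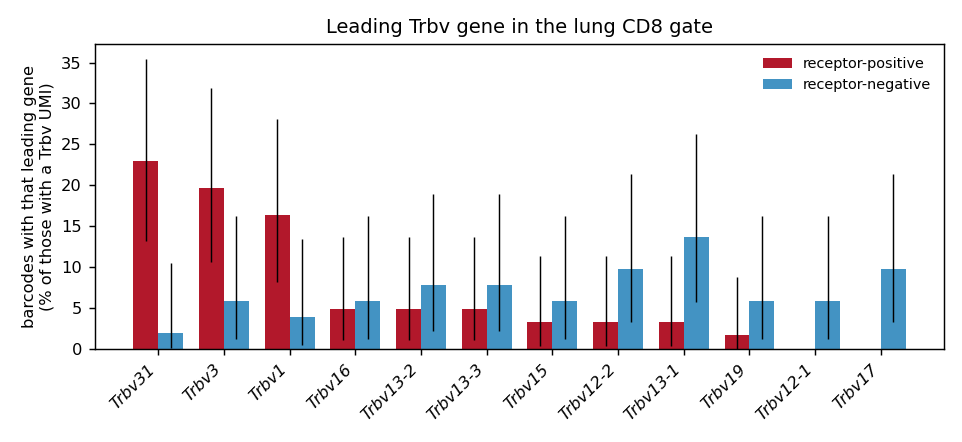
Percentage of barcodes whose leading Trbv gene is the one named, among the 61 receptor-positive and 51 receptor-negative CD8 gate barcodes with any Trbv count, with exact 95% intervals. Genes that led in at least 3 barcodes of either group are drawn, and Trbv31, Trbv3 and Trbv1 led in 14, 12 and 10 receptor-positive barcodes.

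Of the 14 receptor-positive barcodes led by Trbv31, Cxcr6 was seen in 11, Nrgn in 9, Trgc2 in 8, Ccl1 in 7 and Cd160 in 7, but Penk in 1. Of the 25 receptor-positive barcodes led by a Trbv gene other than Trbv31, Trbv3 or Trbv1, Cxcr6 was seen in 11, Penk in 11, Cd160 in 10, Nrgn in 5, Ccl1 in 5 and Trgc2 in 0. The median depth was 5469 UMIs in the first and 4663 UMIs in the second set, and the median receptor count 9.5 and 4. The 12 barcodes led by Trbv3 held Cxcr6 in 8, Nrgn and Ccl1 in 5 each, and Cd160, Penk and Trgc2 in 3 each. The 10 led by Trbv1 held Cd160 in 7, Cxcr6, Nrgn and Ccl1 in 4 each, Penk in 3 and Trgc2 in 2. Of the 35 receptor-positive barcodes with no Trbv count, Trgc2 was seen in 8. A Trav count was found in 22 receptor-positive barcodes, Trav2 led in 7 of them, and 5 of those 7 were led by Trbv31. Receptor sequences across the joint were not analysed here, so shared V genes do not show that cells are of 1 clone.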

How the data were processed

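The authors deposited raw UMI counts per gene and barcode for both libraries, and the submitters' processing notes name Cell Ranger 7.0.1 and build GRCm39. How cells were called, and with which gene models, is not given in the sources used here. The lung file listed 55416 genes and no barcode under 500 UMIs, and 37 genes were mitochondrial. Both libraries shared 64 barcode sequences, 1 of them receptor-positive. The receptor-positive barcodes pooled 456969 UMIs and the receptor-negative ones 333858, and the intervals give the precision this depth allows. Intervals and floors cover counting error only.

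Counts were pooled, scaled to CPM and compared with Python 3.11.15, numpy 2.4.6, scipy 1.17.1 and pandas 2.3.3. Tested genes had 30 counts over both groups and were no gate, receptor, V, D, J or mitochondrial gene. A group at 0 was set to a floor of 3 counts. Some list genes are not reported here by name. Named genes were genes of the lists plus the 15 highest and 10 lowest called genes, without ribosomal and unnamed predicted genes. The cells, lists and rule were chosen with earlier results of these data known. Other gates were CD4 (Cd3 gene and Cd4, no Cd8 gene or Foxp3), Foxp3-positive T cells, NK (Ncr1 or Klrb1c, no Cd3 or Cd8 gene) and B (Cd79a and Ms4a1). Doublets were not removed in the main values; the 6.79% of lung barcodes nearest to simulated doublets were left out as an alternative. On simulated counts with 198 tested genes changed 4-fold, 187 were called in the right direction, none in the wrong one, and 20 unchanged genes were called of 4319 tested. The simulated counts were drawn for each pooled group without differences between barcodes. They therefore do not cover calls that rest on few barcodes, such as that of Tnf.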

Additional observations from a re-analysis of the deposited data

How the results depend on the processing

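The receptor-positive share, the 2 counts of called genes, 14 list medians and 43 genes were recomputed under up to 22 settings (the share under 14, and some lists and genes under fewer than 22, where no value could be had), 3 of them chosen after seeing the data (leaving out barcodes with Rag1, Rag2, Dntt or Arpp21, barcode sequences shared with muscle, and the barcode with most counts of each gene). The share was 32.1% with the split made again on thinned counts and otherwise between 44.1% and 54.3%. Genes called higher and lower numbered 78 and 36 after thinning with the split as reported, 33 and 36 with the split made again, 677 and 380 at 10 counts in place of 30, and 137 and 78 with Lyz2 at 0 and fewer than 3 S100a8 and S100a9 counts. Without dividing barcodes 236 genes were called higher. With Cd4 at 0 the count of lower genes was 104, and without the Rag1, Rag2, Dntt or Arpp21 barcodes it was 96. All other settings gave 300 to 408 higher and 123 to 201 lower genes. Fewer genes pass 30 counts after thinning (944 of 4363), and the balance of calls also changed. Genes called higher were 70.2% of all calls in the main result, 68.4% after thinning with the split as reported and 47.8% with it made again. With the split made again, 27 of the 381 higher genes were called again and 37 had a log2 ratio below 0. Of the 162 lower genes, 24 were called again and 8 were above 0. Of 943 gene values, 111 moved beyond their counting interval and 3 values of called genes changed sign: Zdhhc14, at 0.34 on the log2 scale with the split made again on thinned counts, and Tnf, at 0.91 without likely doublets and 0.96 without its top barcodes (the cause was not tested). Ccl5, Cd69 and Itgae, which were not called, also changed sign under some settings, as did the medians of the cell cycle, interferon response and T cell receptor signalling lists. The cell cycle median, 0.05 as reported, ran from -0.20 to 2.06, the interferon median from -0.23 to 1.5 and the signalling median from -0.36 to 0.49. The naive median ran from -2.67 to -1.75 and the cytotoxic median from 1.32 to 2.40. No paired analysis was possible because each tissue has 1 library. Depth limits the receptor-negative cells: a count of 0 was read against a floor of 3 counts, or 8.99 CPM.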

Other observations

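Genes outside the lists and below the 15 highest ratios also separated the groups by size, and those given here were chosen after their values were seen. Rbpj, the DNA-binding partner of Notch, stood at 514 CPM (451 to 584) in receptor-positive and 41.9 CPM (22.9 to 70.4) in receptor-negative cells, in 73 and 13 barcodes. Its level at 1, 2 to 3, and 4 or more receptor counts was 202, 439 and 631 CPM. Itgav, the integrin alpha V chain that binds latent TGF-beta, stood at 460 CPM (399 to 526) in receptor-positive and 38.9 CPM (20.7 to 66.6) in receptor-negative cells, and at 180, 151 and 631 CPM over the same receptor counts. Kit, the receptor of stem cell factor, was found in 24 receptor-positive barcodes and 1 receptor-negative barcode.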
